A study of Mus musculus with 6 samples.

Results

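The genes described here build the moving parts of motile cilia: axonemal dyneins and their assembly factors, radial spoke proteins and tektins. They were taken as the rows whose gene symbol starts with Dnahc, Dnah, Dnaic, Dnaaf, Rsph or Tekt and a digit, or is Dnali1 or Dnal and a digit. The rule found 28 of 23420 gene symbols in 6 RNA sequencing libraries of mouse palate. These were 11 dynein heavy chain genes (Dnahc in the files, Dnah in current names), 3 intermediate and light intermediate chain genes, 3 assembly factor genes, 6 radial spoke genes and 5 tektin genes. The family was selected on these counts, being higher in mutant than in control libraries, so the values of that comparison are given as a description. Calls of the fit over all genes are counted for the members only beside the share of all genes called, and nothing is read from them.

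The tissue was the region of the palate that gives rise to the anterior hard palate, dissected at E14.5 from C57BL/6 embryos. The control genotype was Shox2Cre/+;Nkx2.5F/F and the mutant genotype Shox2Cre/-;Nkx2.5F/F, with 3 libraries each. A Cre inserted at Shox2 and floxed Nkx2-5 on both chromosomes were thus common to the genotypes, and the control, although titled WT, had a wild-type Shox2 allele only beside the Cre allele. Where Shox2-Cre is active decides where the floxed gene can be lost, in controls as in mutants. Whether embryos were pooled for a library is not in the labels, so the spread between libraries may be technical in part.

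Motile cilia beat because dynein arms on the outer microtubule doublets of the axoneme walk along the neighbouring doublet. Outer arms set the beat frequency and inner arms the bend shape; radial spokes pass signals from the central pair to the arms, and tektins are filaments that run inside the doublet wall. Arms are pre-assembled in the cytoplasm by dynein assembly factors before transport into the cilium. In the head, cells with many motile cilia line the nasal respiratory passages, above the palate, whereas most mesenchymal cells of the palate carry a primary cilium that lacks these arms. Several members are used mainly or also in the sperm tail.

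Levels are given as CPM, read counts scaled to the TMM-adjusted size of each library, with replicates 1, 2 and 3 always in that order. The targeted gene Shox2 stood at 88.2, 68.2 and 81.7 CPM in the controls and at 5.3, 4.12 and 3.13 CPM in the mutants. For Nkx2-5, floxed throughout, control libraries held 8, 0 and 4 reads and no mutant library held any. Library totals were 81950407 to 134813429 counts in controls and 52668242 to 53331397 in mutants, so depth and genotype cannot be told apart. Members took 0.0145% to 0.0218% of all counts in controls (11842 to 29404 counts) and 0.131% to 0.166% in mutants (69836 to 87654 counts). Of the counts of 5 to 50, 99.7% were even in mutant replicate 1 and 63.6% to 73.0% in the other libraries. All 28 members had an even count in mutant replicate 1, against 10 to 16 members in the other libraries. The part of this difference in the values below was not tested. Halving all counts left 24 members called higher, but it treats every library alike and so cannot decide this.

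Upstream sequences were searched because the members moved together and because RFX factors and FOXJ1 are known regulators of motile cilium genes. RefSeq (GRCm38.p6) start sites were matched for 25 of the 28 members, with 250 bases before and 50 after each start. The letters of an RFX X-box, GTNNCC and GNAAC with 3 bases between them on either strand, were found for 3 members (12.0%), beside 2.49% of all 27025 genes. The core GTTGCC, which an X-box match can contain, was found for 9 members (36.0%), beside 14.14% of genes. The forkhead letters TGTTTAC were found for 2 members (8.0%), beside 4.05% of genes. A match is a description of the sequence and not a site of binding. Shown are the 250 bases before the start of Dnahc10 (chr5:124724835-124725084, plus strand) and Tekt4 (chr17:25471340-25471589, plus strand), whose levels were far higher in mutants. They are set beside those of Dnaaf2 (chr12:69198430-69198679, minus strand) and Dnahc17 (chr11:118129220-118129469, minus strand), whose groups overlapped. Each is written 5′ to 3′ on the strand of the gene, and capitals mark matches to any of these 3 motifs.
Dnahc10: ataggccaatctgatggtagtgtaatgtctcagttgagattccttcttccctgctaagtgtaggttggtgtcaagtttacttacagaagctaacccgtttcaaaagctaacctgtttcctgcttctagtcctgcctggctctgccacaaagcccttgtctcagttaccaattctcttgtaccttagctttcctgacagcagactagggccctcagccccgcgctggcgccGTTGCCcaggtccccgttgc
Tekt4: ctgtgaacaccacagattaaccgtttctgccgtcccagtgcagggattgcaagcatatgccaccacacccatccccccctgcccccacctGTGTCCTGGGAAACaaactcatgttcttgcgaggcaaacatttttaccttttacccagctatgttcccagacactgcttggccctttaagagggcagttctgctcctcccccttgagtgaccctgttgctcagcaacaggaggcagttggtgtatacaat
Dnaaf2: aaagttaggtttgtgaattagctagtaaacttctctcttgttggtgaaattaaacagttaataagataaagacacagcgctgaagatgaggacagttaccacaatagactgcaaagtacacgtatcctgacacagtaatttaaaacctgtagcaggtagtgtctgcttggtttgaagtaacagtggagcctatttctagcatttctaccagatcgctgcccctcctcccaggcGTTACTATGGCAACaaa
Dnahc17: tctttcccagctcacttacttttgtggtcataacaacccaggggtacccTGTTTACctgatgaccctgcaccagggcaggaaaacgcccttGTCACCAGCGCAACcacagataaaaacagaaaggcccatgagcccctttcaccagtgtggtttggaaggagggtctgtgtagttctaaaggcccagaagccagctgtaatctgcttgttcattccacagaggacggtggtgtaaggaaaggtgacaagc
The 3 members with the X-box letters were Tekt4, Dnaaf2 and Dnahc17, of which the groups overlapped for Dnaaf2 and Dnahc17. Only these letters with this spacing were searched. Close forms, such as gttgctcagcaac before Tekt4 and gttgcttagcaac before Dnahc7a and Dnahc7b, were not counted. The number of members with an X-box of any form is thus not known, and its relation to the change was not tested. The X-box match of Dnaaf2 begins 17 bases before its start and that of Dnahc17 begins 159 bases before it. Tekt4 had 2 matches. The match shown begins 160 bases before the start, and the other begins at the start itself, after the bases shown. Dnahc17 also held the forkhead letters, as did Tekt3.

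Outer arm heavy chains are the largest motor subunits of the axoneme. Dnahc5, the heavy chain present along the whole ciliary outer arm row and a leading disease gene of primary ciliary dyskinesia, had 0.433, 3.63 and 5.53 CPM in controls. It had 116, 206 and 174 CPM in the mutants, a log2 fold change of 5.66 (SE 0.74). Without control replicate 3 the value was 6.31 (SE 0.84). The mutant libraries lay far above all controls, and control replicate 1 lay far below the other controls. In bulk tissue, a larger number of ciliated cells and more of a transcript in each of them cannot be told apart. Dnahc9, its partner heavy chain in the distal part of airway cilia, had 0.544, 1.44 and 1.77 CPM in controls and 47.6, 92.1 and 79.2 CPM in mutants (5.83, SE 0.45), the largest log2 fold change among the 27 members tested. Dnahc11, the partner in the proximal part and a gene of left-right asymmetry, had 1.67, 1.71 and 4.42 CPM in controls and 46.4, 52.0 and 36.9 CPM in mutants (4.1, SE 0.41). Without control replicate 3 this was 4.73 (SE 0.2).

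The other outer arm genes are those of the sperm tail. Dnahc8 had 4.79, 8.12 and 8.75 CPM in controls and 80.0, 60.6 and 46.5 CPM in mutants (3.11, SE 0.28). Unlike Dnahc5 and Dnahc9, it was highest in mutant replicate 1. Dnahc17 had 1.45, 0.812 and 1.11 CPM in controls and 1.49, 0.629 and 0.745 CPM in mutants (-0.23, SE 0.43), and its groups overlapped. It is the only tested member with a negative value. Dnahc5 lies on chromosome 15 from 28203752 to 28472052, and Dnahc17 on chromosome 11 from 118021723 to 118130634 (GENCODE M21 on GRCm38).

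Inner arm heavy chains form a double-headed dynein, to which Dnahc2 and Dnahc10 belong, and several single-headed ones. Dnahc10 had 1.05, 2.74 and 5.46 CPM in controls and 140, 150 and 107 CPM in mutants (5.39, SE 0.54; 6.1, SE 0.44, without control replicate 3). Dnahc2, its partner, differed much less, with 16, 20.5 and 19.2 CPM in controls and 83.3, 84.2 and 62.3 CPM in mutants (2.04, SE 0.15). Per length, Dnahc10 was above Dnahc2 in every mutant library (7.59 to 10.7 against 4.54 to 6.15 CPM per kb), whereas its control mean was below (0.22 against 1.36 CPM per kb). Dnahc6 had 1.97, 4.11 and 5.28 CPM in controls and 99.7, 133 and 104 CPM in mutants (4.87, SE 0.35). Dnahc1 had 15.4, 23.1 and 23.8 CPM in controls and 75.9, 73.9 and 54.4 CPM in mutants (1.71, SE 0.2), the smallest value among the 6 inner arm genes. All 6 had mutant levels above every control, beside 29.7% of all 16604 genes tested.

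Dnahc7a and Dnahc7b are close copies on chromosome 1, and reads shared between them may have been split or dropped, so their values are uncertain. Dnahc7a had 0.656, 0.664 and 0.875 CPM in controls and 8.43, 13.3 and 11.7 CPM in mutants (3.92, SE 0.25). Dnahc7b had 2.96, 4.11 and 5.02 CPM in controls and 23.9, 30.6 and 25.8 CPM in mutants (2.73, SE 0.22). Neither copy had groups that overlapped.

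Intermediate chains anchor the outer arm to the doublet, and Dnali1 is the light intermediate chain of inner arms. Dnaic1 had 0.804, 1.16 and 1.54 CPM in controls and 13.6, 21.3 and 17.7 CPM in mutants (3.9, SE 0.29). Dnaic2 had 1.92, 4.54 and 6.79 CPM in controls and 67.0, 82.2 and 72.7 CPM in mutants (4.05, SE 0.41). Dnali1 had 0.853, 3.3 and 4.64 CPM in controls and 49.9, 85.1 and 76.2 CPM in mutants (4.56, SE 0.56). The 3 genes had the narrowest span of log2 fold changes among the 6 groups of members, and in each the lowest library of its genotype was replicate 1.

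Assembly factors fold and join dynein subunits before they enter the cilium. Dnaaf1 had 0.445, 1.96 and 3.17 CPM in controls and 31.0, 40.2 and 35.3 CPM in mutants (4.23, SE 0.59; 4.86, SE 0.6, without control replicate 3). Dnaaf3 had 3.19, 3.8 and 5.73 CPM in controls and 36.6, 39.0 and 33.5 CPM in mutants (3.1, SE 0.23). Dnaaf2, also known as kintoun, had 31.5, 27.6 and 27.8 CPM in controls and 30.3, 34.6 and 34.0 CPM in mutants (0.19, SE 0.1), and its groups overlapped. Thus Dnaaf2 was the most abundant of the 3 in controls, per length as well, and the least abundant per length in mutants. Exons of Dnaaf1 overlap those of Taf1c on the opposite strand by 584 bases, and those of Dnaaf3 overlap Tnni3 and Gm15873 by 367 bases in all. Dnaaf2 has the largest overlap of any member, 1457 bases with Gm49383 and Gm49384 on the same strand, which a strand setting would not separate. Whether the counting used strand is not stated in the labels, so reads from overlaps on opposite strands cannot be told apart.

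**Figure D1:**
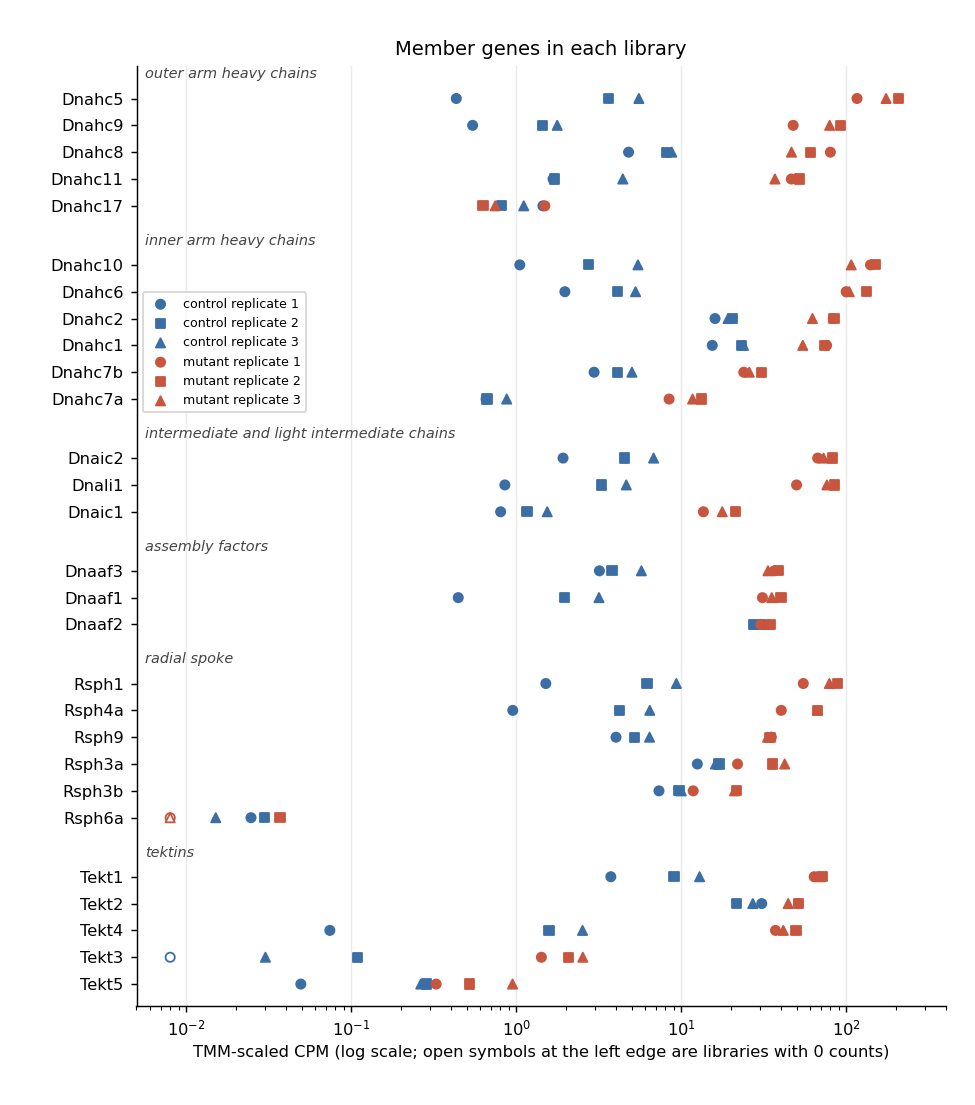
Level of each member in each library, as TMM-scaled CPM on a log axis, with controls in blue, mutants in red and replicates by symbol; open symbols at the left edge stand for 0 counts. Mutant and control libraries are apart for 25 of 28 members, and overlap for Dnahc17, Dnaaf2 and Rsph6a. Among 16604 genes tested, 29.7% have groups apart with higher mutant levels and 29.2% with lower ones.

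Radial spokes are T-shaped complexes whose head and stalk are made of different Rsph proteins. Rsph1, of the spoke head, had 1.51, 6.19 and 9.33 CPM in controls and 54.8, 88.2 and 78.9 CPM in mutants (3.69, SE 0.58). Rsph4a, also of the head and a disease gene of ciliary dyskinesia, had 0.952, 4.21 and 6.44 CPM in controls and 40.3, 67.2 and 67.0 CPM in mutants (3.89, SE 0.61). Rsph9 had 4.02, 5.19 and 6.42 CPM in controls and 35.1, 34.5 and 33.3 CPM in mutants (2.72, SE 0.18). The mutant levels of Rsph9 were the most even of all members, with the highest library 1.05 times the lowest. Rsph6a, the sperm relative of Rsph4a, had 2, 3 and 2 counts in controls and 0, 2 and 0 in mutants, too few for the count filter, and no fold is given.

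Rsph3a and Rsph3b, copies of a stalk gene on chromosome 17, differed least among the spoke genes. Rsph3a had 12.5, 16.9 and 16.1 CPM in controls and 21.9, 35.8 and 42.3 CPM in mutants (1.14, SE 0.24). Rsph3b had 7.32, 9.68 and 9.99 CPM in controls and 11.8, 21.6 and 21 CPM in mutants (1.01, SE 0.25). In both, mutant replicate 1 lay closer to the controls than to the other mutants. As near-identical copies they may share reads. Rsph3b was no longer called higher without mutant replicate 2 (0.86, SE 0.28) or mutant replicate 3 (0.89, SE 0.29), or with a covariate for Y-linked genes (1.19, SE 0.39).

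Tektins spanned log2 fold changes from 0.89 to 5.36. Tekt4 had 0.0742, 1.58 and 2.52 CPM in controls, the first from 6 counts, and 37.2, 49.5 and 41.5 CPM in mutants (4.9, SE 0.82; 5.64, SE 0.93, without control replicate 3). Tekt1 had 3.74, 9.04 and 12.9 CPM in controls and 63.8, 71.1 and 69.4 CPM in mutants (2.99, SE 0.4). Tekt2 had 30.7, 21.6 and 27.1 CPM in controls and 51.3, 51.0 and 44.4 CPM in mutants (0.89, SE 0.14). Tekt2 was thus well expressed in controls and, unlike most members, was highest in control replicate 1. Its exons overlap Gm12945 on the opposite strand by 396 bases.

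The other tektins, known from the sperm tail, were low. Tekt3 had 0, 11 and 4 counts in controls and 78, 112 and 136 counts in mutants (5.36, SE 0.81). Without control replicate 2 the log2 fold change of Tekt3 was 6.68 (SE 0.83), and with so few control counts it depends on the prior count of the fit. Tekt5 had 0.0495, 0.287 and 0.264 CPM in controls and 0.327, 0.518 and 0.949 CPM in mutants (1.54, SE 0.69). The lowest mutant library of Tekt5 lay just above the highest control.

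Counted over the whole family, the groups did not overlap for 25 of 28 members, all with higher mutant levels. In the fit over all genes, 29.7% of 16604 genes tested had non-overlapping groups with higher mutant levels and 29.2% with lower ones. A log2 fold change of at least 2 was reached by 20 of 27 tested members, beside 7.4% of all genes tested. Of the 27 members that passed the count filter, edgeR (adjusted p under 0.05) called 24 higher and none lower. Among all genes tested 45.8% were called, 24.1% as higher and 21.7% as lower. The 3 not called were Dnaaf2, Dnahc17 and Tekt5. The median log2 fold change was 3.69 over the members tested and 0 over all genes tested, and 3.24 for the members without control replicate 1. By group the median was 4.1 for outer arm heavy chains, 4.05 for intermediate chains, 3.32 for inner arm heavy chains, 3.1 for assembly factors, 2.99 for tektins and 2.72 for radial spokes.

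**Figure D2:**
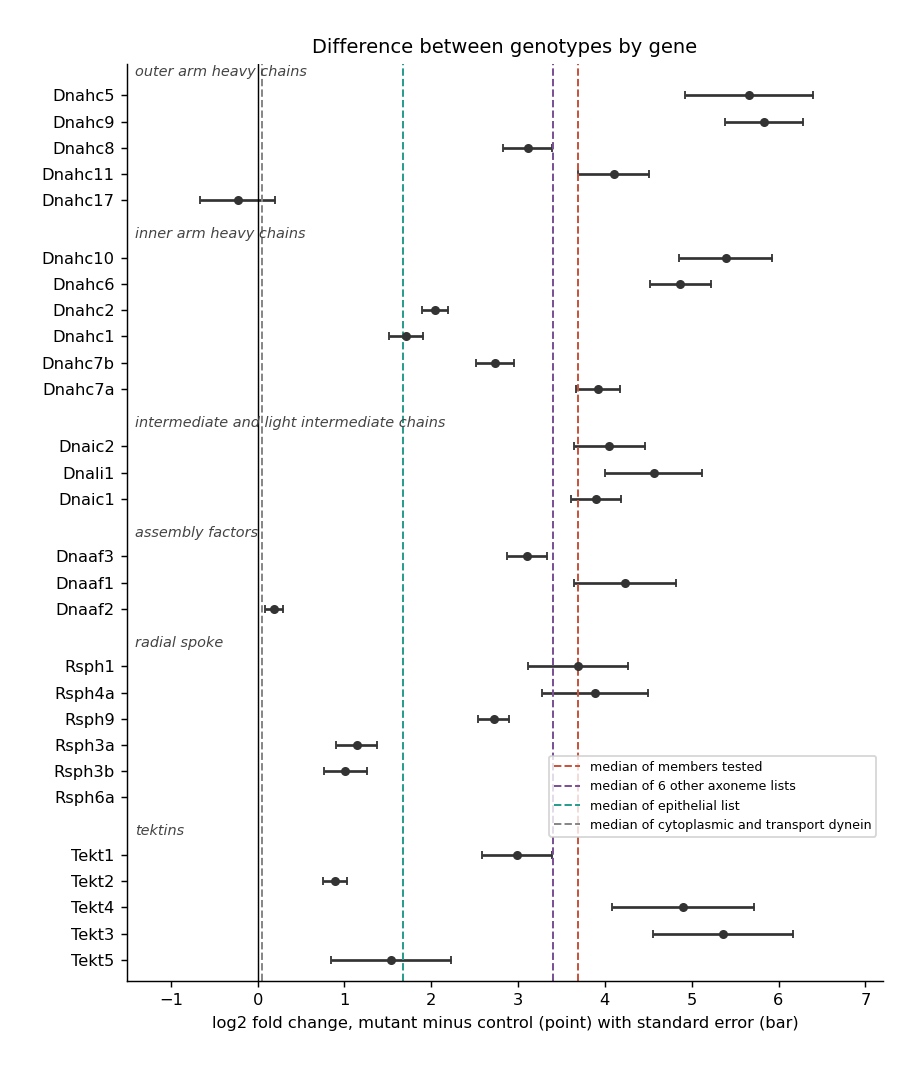
Log2 fold change of each tested member (point) with its standard error (bar), mutant minus control, by group of members. Dashed lines give the medians of the members (3.69), of 6 other axoneme lists (3.4), of the epithelial list (1.68) and of the cytoplasmic and transport dynein list (0.05). Dnahc17 (-0.23) and Dnaaf2 (0.19) lie near 0, and 20 of the 27 lie above 2.

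Levels between genes were compared as CPM per kb of the longest coding transcript. In mutants the highest were Rsph1 (62.1 CPM per kb, with libraries from 46.0 to 74.0), Tekt1 (47.1 ± 2.63 CPM per kb, SD, n = 3) and Rsph9 (35.5 ± 0.962). Dnali1 (33.0 ± 8.59), Tekt2 (31.7 ± 2.53), Tekt4 (27.8 ± 4.07) and Dnaic2 (25.7 ± 2.66) followed, and neighbours in this run had library ranges that overlapped, except that Rsph9 lay below Tekt1 in every library. The heavy chains were lower per length than these, led by Dnahc5 (10.6 ± 2.93), Dnahc10 (9.42 ± 1.63) and Dnahc6 (8.87 ± 1.45), whose ranges overlapped. Dnahc2 (5.59 ± 0.906), Dnahc9 (5.29 ± 1.66) and Dnahc1 (5.29 ± 0.923) also overlapped. Dnahc17 was lowest of the tested members (0.0637 ± 0.0312). The length chosen moves this order: per kb of all annotated exons the mutant mean of Rsph9 was 21.4 CPM, below Dnali1 (33.0) and Tekt2 (25.7), and that of Dnahc8 was 2.33 instead of 3.74.

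The make-up of each group of members is given as a description for both genotypes. Among the outer arm heavy chains, Dnahc8 took 45.6% ± 6.95 of the summed CPM per kb in controls and 17% ± 7.09 in mutants (SD, n = 3 each). Dnahc5 took 17.8% ± 11.3 in controls and 45.7% ± 5.97 in mutants. Among the inner arm genes, Dnahc1 and Dnahc2 took 41.6% ± 1.01 and 35.7% ± 4.7 in controls and 16.4% ± 1.56 and 17.3% ± 1.23 in mutants. Dnahc10 and Dnahc6 led in mutants, with 29.1% ± 1.62 and 27.5% ± 2.88. Tekt2 took 71.8% ± 14.3 of the tektin level in controls, whereas in mutants Tekt1 (43.6% ± 1.57), Tekt2 (29.4% ± 2.7) and Tekt4 (25.7% ± 2.1) all contributed. Dnaaf2 took 77.1% ± 8.25 of the assembly factor level in controls and 25.2% ± 1.29 in mutants. Across the 27 tested members, log2 CPM per kb in controls and in mutants had a Pearson r of 0.74 and a Spearman rho of 0.75, where points share libraries and lengths.

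**Figure D3:**
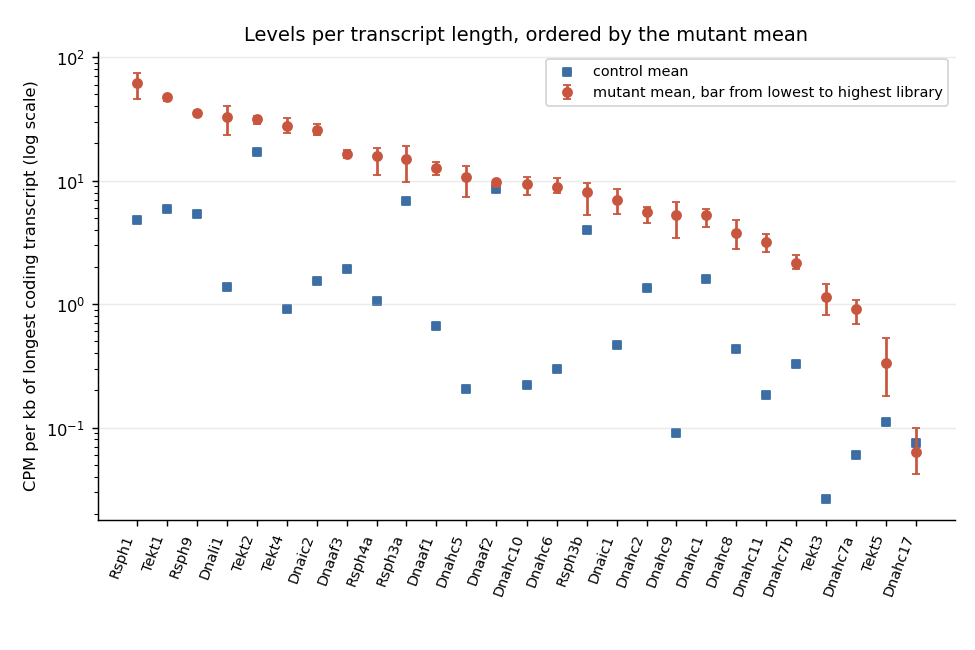
CPM per kb of the longest coding transcript on a log axis for the 27 tested members, ordered by the mutant mean (red, bar from the lowest to the highest library), with the control mean in blue. Rsph1 leads in mutants (62.1 CPM per kb) and Tekt2 in controls (17.2 CPM per kb).

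Libraries of the same genotype also differed, a comparison that the choice of the family did not use. Control replicate 1 was the lowest control for 24 of 27 tested members, beside 41.6% of all genes tested. Control replicate 3 was the highest for 20 of 27, beside 28.1% of all genes. The median log2 difference of control replicate 1 from the mean of the other controls was -0.87 over the members and -0.01 over all genes. The highest control was 12.8 times the lowest for Dnahc5, 34.0 times for Tekt4 and 7.12 times for Dnaaf1, but 1.14 times for Dnaaf2 and 1.28 times for Dnahc2. The 3 members not lowest in control replicate 1 were Dnaaf2, Dnahc17 and Tekt2, each with the highest control value there. Across the 27 members, the excess of control replicates 2 and 3 over control replicate 1 and the excess of the mutants over control replicates 2 and 3 had a Pearson r of 0.65 and a Spearman rho of 0.69. These measures share control replicates 2 and 3 with opposite sign, and the second holds the mutant excess on which the family was selected. The correlation is thus only a description, over genes of the same libraries.

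Mutant libraries were closer to each other, with a median ratio of highest to lowest of 1.41 over the members, against 2.64 among controls. Over all genes tested these medians were 1.23 and 1.21. Mutant replicate 1 was the lowest mutant for 18 of 27 members, beside 43.9% of all genes, and mutant replicate 3 for 8 members, beside 26%. The 8 were Dnahc1, Dnahc2, Dnahc8, Dnahc10, Dnahc11, Dnaaf3, Rsph9 and Tekt2. The other member, Dnahc17, was lowest in mutant replicate 2. Across members, the log2 ratio of mutant replicate 3 to the mean of mutant replicates 1 and 2 had a Pearson r of -0.53 and a Spearman rho of -0.44 with log2 transcript length (n = 27, genes of the same libraries).

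**Figure D4:**
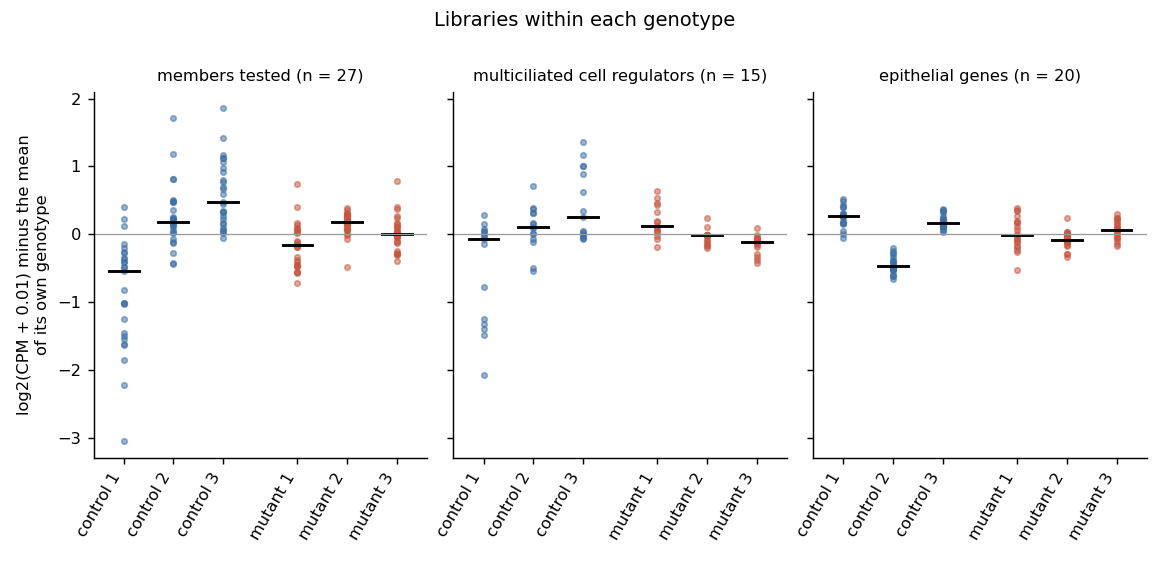
Log2(CPM + 0.01) of each gene minus the mean of its own genotype, for the 27 tested members, 15 regulators of multiciliated cells and 20 epithelial genes; points are genes and black bars are medians. Members are lowest in control replicate 1, while epithelial genes are lowest in control replicate 2.

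The other axoneme genes, listed by structure, moved in the same direction. Over 6 lists (central pair, nexin-dynein regulatory complex, outer arm docking and ruler, other assembly factors, other radial spoke proteins, and microtubule inner and surface proteins), edgeR called 70 of 74 tested genes higher and none lower at an adjusted p under 0.05, with a median of 3.4. Over all genes tested, 24.1% were called higher and 21.7% lower. Of the 74, 1 was called lower without mutant replicate 1. All 16 central pair genes rose, among them Hydin, from 0.963 ± 0.718 to 91.5 ± 22.8 CPM (6.5, SE 0.59, edgeR adjusted p = 0.000371). Spef1, which bundles central pair microtubules, was already present in controls and rose from 28.4 to 68.0 CPM (1.26, SE 0.09, adjusted p = 0.000234). Lrrc23, a radial spoke protein, rose to 218 CPM in mutants (4.43, SE 0.63, adjusted p = 0.00157). Heatr2, an assembly factor now named Dnaaf5, rose from 32.2 to 81.1 CPM (1.33, SE 0.07, adjusted p = 0.00016). Ccdc40, of the ruler that spaces the arms, rose from 9.98 to 96.2 CPM (3.26, SE 0.26, adjusted p = 0.000251). The genes not called were Gas8, Calml4, Pih1d1 and Ruvbl1, and Gas8 had 0.21 (SE 0.08, adjusted p = 0.0661). Ruvbl1 and Pih1d1 also serve complexes outside cilia, but whether this bears on their values was not tested. Ruvbl2, in the same list as Ruvbl1, was called higher (0.62, SE 0.06, edgeR adjusted p = 0.00049). The lists were written with earlier results of these data known.

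Dyneins that work outside the axoneme differed in either direction, and most of the differences were small. Of 17 cytoplasmic and ciliary transport dynein genes, 7 were called higher and 4 lower by edgeR, beside 24.1% and 21.7% of all genes tested. The median was 0.05, and it pools both kinds of dynein and describes neither alone. Those called higher were Dync1h1, Dync2h1, Dync2li1, Wdr34, Wdr60, Dynlt3 and Dynlrb2. Those called lower were Dync1i2, Dynll1, Dynll2 and Dynlrb1. The number lower was 2 without control replicate 2, control replicate 3 or mutant replicate 2, with library size alone as scaling, with the replicate block, or with the Y-linked covariate. Dync1h1, the cytoplasmic heavy chain, had 426 CPM in controls and 582 CPM in mutants (0.45, SE 0.1, edgeR adjusted p = 0.00812), and the light chain gene Dynll2 fell from 233 to 155 CPM (-0.59, SE 0.08, adjusted p = 0.00115). Dync2h1, the heavy chain of retrograde transport in all cilia, rose by 1.22 (SE 0.13, adjusted p = 0.000537). Dynlrb2 stood apart, from 0.866, 4.94 and 7.18 CPM in controls to 57.8 ± 9.63 CPM in mutants (SD, n = 3; 3.72, SE 0.64, adjusted p = 0.00325). Apart from those highest in mean CPM (Dync1h1, Dynll1, Dynll2 and Dync1i2), genes of this list were named after their values were seen. The difference between these genes and the members was not tested.

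Regulators of the multiciliated state were higher too. Of 15 tested, with a median of 1.54, 11 rose and 3 (E2f4, E2f5 and Tfdp1) fell, beside 24.1% and 21.7% of all genes tested. Only 1 fell without control replicate 2, and none with the Y-linked covariate. Foxj1, the master factor of motile cilia, had 20.7, 64.7 and 105 CPM in controls and 313, 303 and 297 CPM in mutants (2.26, SE 0.5, edgeR adjusted p = 0.00906). Summed CPM of the members per CPM of Foxj1 was 7.08, 2.91 and 2.11 in the controls. In the mutants it was 4.06, 5.36 and 4.63, and these ratios overlapped. This sum includes members well expressed in controls, such as Dnaaf2 (31.5 CPM) and Tekt2 (30.7 CPM) in control replicate 1. Ratios without such members were not computed, so the overlap does not describe the others.

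Markers of epithelium, of which some kinds carry motile cilia, were also higher in mutants. All 20 epithelial genes listed were called higher by edgeR, beside 24.1% of all genes tested, with a median in the list of 1.68 and none at 0. Their summed level was 1440 to 2460 CPM in controls and 7950 to 8960 CPM in mutants. Summed member CPM was 146, 188 and 222 in controls and 1270, 1620 and 1370 in mutants. The ratio of members to epithelial genes was 0.0596, 0.131 and 0.0926 in the controls and 0.152, 0.204 and 0.153 in the mutants. Every mutant ratio was above every control ratio. Since the members were selected for higher mutant levels, this order is only a description, and nothing is read from it. The most abundant epithelial genes were Krt5, a keratin of basal cells (348 CPM in controls and 1720 in mutants), and Dsp, of desmosomes (351 and 1630 CPM). Within controls the epithelial sum was lowest in replicate 2, whereas the members were lowest in replicate 1. How far the amount of epithelium in the dissection takes part in the member values was not tested.

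**Figure D5:**
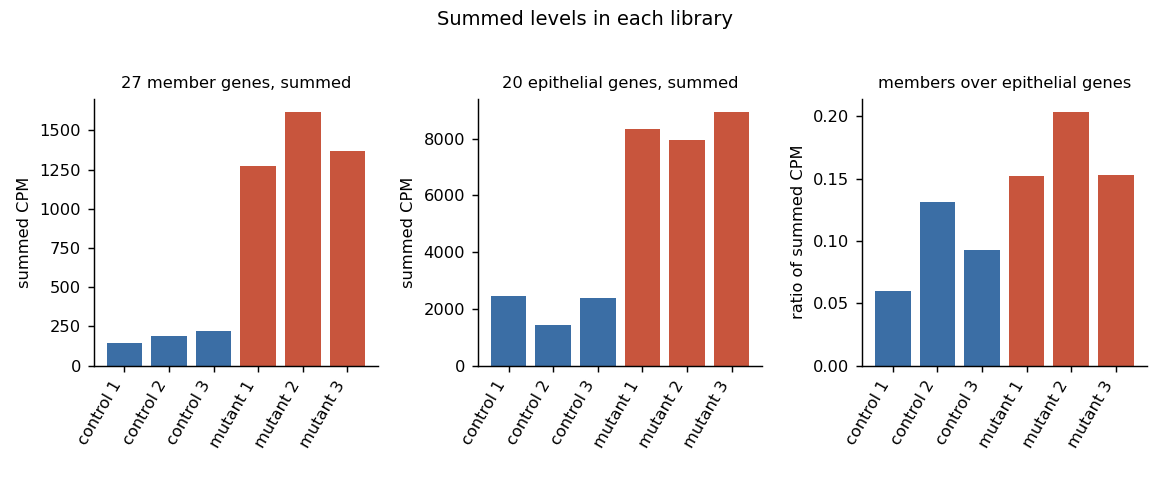
Summed TMM-scaled CPM of the 27 tested members (left) and of 20 epithelial genes (middle) in each library, and their ratio (right), controls in blue and mutants in red. The ratio runs from 0.0596 to 0.131 in controls and from 0.152 to 0.204 in mutants. Members were selected for higher mutant levels, so the order of the ratios is only a description.

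Other sources of axonemal transcripts were looked at through their own markers. The counts that rose or fell stand beside 24.1% of all genes tested called higher and 21.7% called lower. Of 14 airway secretory genes, all 8 that passed the filter rose, with summed levels of 28.6 to 55.7 CPM in controls and 319 to 521 CPM in mutants, while Scgb1a1 and Lcn11 had 0 counts in every library. Of these, 5 rose without mutant replicate 2. With a filter at 1 CPM, Muc5b, Spdef and Muc5ac were no longer tested, and the other 5 all rose. Of 16 germ cell genes, 8 passed the filter and 1 rose (Odf2, which is also a centriole gene), and the sperm chromatin genes Prm2 and Tnp1 had 0 counts in every library. Of 10 ependyma and choroid plexus genes, 7 passed and 4 rose, with 2 rising without mutant replicate 2. Those that rose were Aqp4, a water channel (2.35 CPM in controls and 29.9 CPM in mutants; 3.66, SE 0.46, edgeR adjusted p = 0.000987), Clic6, from 22.5 to 57.2 CPM (1.35), Otx2, from 2.03 to 7.26 CPM (1.85) and Aqp1, from 62.4 to 89.4 CPM (0.52). Ttr, the main transcript of choroid plexus, had 0 to 0.0991 CPM over all libraries. Of 12 olfactory neuron genes, 11 passed, 3 rose and 2 fell, counts near the shares of all genes tested. Their summed levels were 145 to 162 CPM in controls and 103 to 125 CPM in mutants. Those that rose were Cnga4, a channel subunit of olfactory cilia (from 0.0718 to 2.34 CPM; 4.9, SE 0.71, edgeR adjusted p = 0.00173), Stoml3 (from 0.168 to 4.6 CPM; 4.74, SE 0.57, adjusted p = 0.000822) and Ano2. Gap43 and Ebf2 fell, and Omp, the mature neuron marker, had 0.226 to 0.555 CPM over all libraries and was not called. Only 1 fell without control replicate 1, control replicate 2 or mutant replicate 3, or with the Y-linked covariate. Of 15 mesenchyme genes, 5 fell (Prrx2, Twist1, Twist2, Pdgfra and Msx1) and 1 rose (Dcn). The largest fall was that of Msx1, from 101 to 24.2 CPM (-2.07, SE 0.14, edgeR adjusted p = 0.000229). The number that fell was 3 with the Y-linked covariate and 8 without replicate 1 of both groups, while 2 rose without mutant replicate 1 and 3 with library size alone or in DESeq2. Summed mesenchyme levels were 11000 to 20600 CPM in controls and 16100 to 17200 CPM in mutants. Of 14 macrophage genes 13 rose, and of 7 lung genes that passed the filter 6 rose. Among them was Sftpc, the surfactant protein gene, from 0.0141 to 8.36 CPM (9.18, SE 0.73, edgeR adjusted p = 0.000255). Its controls stood at 0.0247, 0.00991 and 0.00754 CPM, so the fold depends on the prior count of the fit. Ager was not called, and Sftpb, Sftpa1 and Lamp3 did not pass the filter. The part of these cell types in the member values was not tested.

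Differences between genotypes are also given by transcript length. Among 364 other tested genes with a coding transcript of at least 10 kb the median log2 fold change was 0.2. It was -0.02 over 15243 tested genes with a shorter one. The median was 3.92 for the 11 heavy chain members and 3.39 for the 16 shorter members tested. The part of length in the member values was not tested.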

How the data were processed

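RNA was measured in 3 control and 3 mutant libraries, grouped by title and genotype. The authors deposited a file for each library with a gene symbol and a count in each line, read here as raw counts because the values are whole numbers with unequal totals. HISAT2 and StringTie and the builds mm9 and mm10 are named per the submitters' processing notes. For the counter, its strand setting and its annotation: not given in the sources used here.

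The unaltered counts were fitted in edgeR 4.0.16 under R 4.3.3 (filterByExpr, TMM, quasi-likelihood F test, Benjamini-Hochberg over 16604 genes, threshold 0.05). The standard error is the absolute log2 fold change over the square root of F. CPM are TMM-scaled. Alternatives used RLE factors, library size only, DESeq2 1.42.0, limma-voom (limma 3.58.1), other filters, halved counts, a replicate block, a Y-linked covariate and libraries left out. Per-length values use the longest coding transcript of GENCODE M21 on GRCm38, with 98.5% of symbols matched. On simulated counts the fit recovered 66.4% of 2-fold and 84.2% of 4-fold changes (16453 genes, 200 changed, 5 draws).

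Members and lists were chosen with earlier results of these data known. Every member is named, with library values for the most abundant, most and least changed and overlapping members of each group. From each list up to 4 genes, those highest in mean CPM, could be named, with the uncalled genes where 3 or fewer. Other genes named from the cell type lists, such as defining markers at or near 0 and the genes called there, were chosen after their values were seen. Counting intervals are not given, since read mates may have been counted separately.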

Additional observations from a re-analysis of the deposited data

How the results depend on the processing

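The 24 members called higher numbered 23 to 25 under all 16 alternatives: 23 with the Y-linked covariate, 25 without replicate 1 of both groups, where Dnaaf2 was called (0.3, SE 0.07), and 23 to 24 with 1 library left out. No alternative called a member lower. The median log2 fold change of the members was 3.24 to 4.07 with 1 library left out, the lowest without control replicate 1, and 3.41 to 3.91 under the other alternatives. With the replicate block it was 3.91, with 24 members called higher and 3720 genes called higher and 3302 lower over all genes. The block changed no call of a member, and since deviations of same-numbered libraries correlated at 0.081, 0.082 and 0.02 across genes, the numbers were not taken as a pairing. Library size alone moved the median of all genes by 0.06. Counts over all genes ranged from 2821 to 4595 higher and from 2411 to 4509 lower. Of the 6 other axoneme lists, 0 to 1 genes were called lower with 1 library left out, and 1 without replicate 1 of both groups. Every control was deeper than every mutant, which limits members near the detection limit (Rsph6a, Tekt3 and Tekt5).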

Other observations

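The order of the mutant libraries is given here for regulators of multiciliated cells and for structural genes of the axoneme. Of the 15 regulators tested, 12 were highest in mutant replicate 1 and 13 were lowest in mutant replicate 3, beside 36.7% and 26% of all genes tested. Mcin (Mcidas), which starts the program of centriole amplification, had 56.0, 38.8 and 33.0 CPM in mutant replicates 1, 2 and 3. Ccno, another gene of centriole amplification, had 96.2, 62.2 and 57.4 CPM, and Ccdc67 (Deup1), of the structure from which new centrioles grow, had 121, 88.3 and 85.1 CPM. Mutant replicate 1 was the lowest mutant for 18 of 27 members and 58 of 74 genes of the 6 other axoneme lists, beside 43.9% of all genes tested. These regulators were named after their values were seen, and the difference in order was not tested. Mutant replicate 1 is also the library with 99.7% even counts among counts of 5 to 50.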
